A study of Mus musculus with 29 samples.

Results

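The genes described here were 55 cell cycle and DNA replication genes, chosen by symbol for their known function out of 56953 gene rows in the deposited count table. They comprised 15 S phase genes, 20 genes of G2 phase and mitosis, 12 cyclins and cyclin-dependent kinases (CDKs), 6 CDK inhibitors and the transcription factors E2f1 and Foxm1. All 55 were found in the table, and 54 passed the filter on low counts. The exception was Cdkn1c, which encodes the inhibitor p57.

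RNA was sequenced with Smart-seq3 from crude stromal vascular fraction (SVF) cells, the non-adipocyte cells that enzymatic digestion frees from fat tissue. The cells came from inguinal (iWAT) and perigonadal (pgWAT) white adipose tissue of male and female C57BL6/J mice, for which the labels name no further allele and which were adult according to the study's methods. Every culture, in all 4 groups, was kept for 4 days in PM1 preadipocyte medium with 1 nM basic FGF in a 96-well plate, so no group without the growth factor was included. The study describes these cultures as confluent (filling the well) when RNA was taken, before differentiation was started. The 29 libraries were 10 of iWAT male, 9 of iWAT female, 4 of pgWAT male and 6 of pgWAT female cells. They held 315316 to 1102234 counts, and the 55 genes took between 0.314% and 0.786% of them. The study's methods give other group sizes than these labels, which were used here. Each sample title ends in a letter and a number. The number was taken here as the column of the library plate, which the labels do not name. The labels do not say which wells came from the same animals or experiment, and the study describes its wells of both depots as technical replicates from a few independent experiments. Each n below therefore counts wells, and SDs and p-values measure only the spread between wells, not between animals or experiments.

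Some libraries went against their labels or stood apart. By Xist and 4 Y-linked genes, all 19 iWAT libraries matched their sex label but 5 of 10 pgWAT libraries did not. Labelled male replicates 2 and 4 held 24 and 60 Xist counts, labelled female replicates 2 and 3 held no Xist and 23 and 26 Y-linked counts, and labelled female replicate 1 held both (7 and 10 counts). Depot could still be compared, whereas a sex comparison over all pgWAT libraries is one of labels. Separately, pgWAT male replicates 1 and 3, which matched their label, had macrophage marker sums of 7749 and 8354 CPM (counts scaled to the same library total), compared with 781 to 3604 in the other 8 pgWAT libraries. They also carried the highest summed S phase level of pgWAT, so results are given with and without them, a choice made after seeing the data.

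As background, a cell that receives growth factor signals makes D-type cyclins, which with CDK4 and CDK6 inactivate the RB protein and free E2F factors. E2F then switches on genes for DNA replication: the MCM helicase, its loaders, and the enzymes that make nucleotides. Later in the cycle the MuvB complex with B-MYB and FOXM1 switches on mitotic genes, many of which carry a CHR element near their start. In adipose tissue, preadipocytes and other stromal cells taken into culture with basic FGF divide until they fill the well. Bulk RNA cannot tell apart fewer cycling cells from less of each transcript per cycling cell.

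The promoters were searched for words of both programs. RefSeq (GRCm38.p6) had a promoter, from 250 bases before to 50 bases after the start, for 44 of the 55 genes, 51 promoters in all. Not matched were Tpx2, Foxm1, Aurkb, Gmnn, Ccnd1, Kif20a, Mcm4, Ccna2, Cdkn1c, Ccnd2 and Ccne2. Each was searched on both strands for E2F words (TTCCCGC or TTGGCGC or TTCGCGC or TTGCCGC), CHR words (TTTGAA or TTCGAA) and CCAAT. An E2F word read on the other strand as GCGCCAA can share its last letters with CCAAT. Of the S phase promoters, 11 of 15 (73.3%) held an E2F word and 2 (13.3%) a CHR word. Of the G2/M promoters, 15 of 18 (83.3%) held a CHR word and 1 (5.56%), that of Mki67, an E2F word. Among all 32851 promoters these shares were 9.57% for E2F and 19.2% for CHR. CCAAT stood in 73.3% of the S phase and 88.9% of the G2/M promoters, compared with 37.4% of all. A match describes letters and does not show that a factor binds.

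The promoters below show the kinds of pattern, with matched words in capitals. Mcm5, an S phase gene, held E2F words and CCAAT but no CHR word. Cdc20, a G2/M gene, held CHR and CCAAT, and Cdk1 held all 3 kinds. Cdkn1b, the only member called higher in pgWAT in the main comparison, held CCAAT alone.
Mcm5, chr8:75109259-75109558, plus strand: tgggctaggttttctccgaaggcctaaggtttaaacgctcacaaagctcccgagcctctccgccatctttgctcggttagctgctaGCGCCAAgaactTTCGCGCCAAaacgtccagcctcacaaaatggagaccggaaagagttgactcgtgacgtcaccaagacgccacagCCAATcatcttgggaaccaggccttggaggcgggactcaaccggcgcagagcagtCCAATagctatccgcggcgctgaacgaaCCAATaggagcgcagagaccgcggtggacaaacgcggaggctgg
Cdc20, chr4:118437294-118437593, minus strand: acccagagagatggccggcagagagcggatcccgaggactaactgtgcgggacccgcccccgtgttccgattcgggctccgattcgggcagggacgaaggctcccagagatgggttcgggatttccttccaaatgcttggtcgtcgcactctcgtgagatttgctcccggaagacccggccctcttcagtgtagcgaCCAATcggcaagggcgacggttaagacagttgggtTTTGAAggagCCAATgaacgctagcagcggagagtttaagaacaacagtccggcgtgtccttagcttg
Cdk1, chr10:69352863-69353162, minus strand: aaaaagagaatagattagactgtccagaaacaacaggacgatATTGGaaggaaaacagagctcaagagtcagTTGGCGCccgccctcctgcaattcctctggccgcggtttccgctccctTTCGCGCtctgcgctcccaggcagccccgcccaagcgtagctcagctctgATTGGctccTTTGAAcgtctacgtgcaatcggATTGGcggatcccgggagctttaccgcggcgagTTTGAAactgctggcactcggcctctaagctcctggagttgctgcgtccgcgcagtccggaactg
Cdkn1b, chr6:134920151-134920450, plus strand: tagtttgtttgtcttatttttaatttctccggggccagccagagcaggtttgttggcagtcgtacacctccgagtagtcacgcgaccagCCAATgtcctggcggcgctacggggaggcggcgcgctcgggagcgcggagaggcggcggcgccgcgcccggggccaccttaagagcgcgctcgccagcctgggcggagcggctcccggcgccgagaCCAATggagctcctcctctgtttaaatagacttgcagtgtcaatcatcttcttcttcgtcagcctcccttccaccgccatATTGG

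The first question was whether cultures from the 2 depots differed in these genes. They did, in one direction: 42 of the 54 genes tested were lower in pgWAT than in iWAT and 1 was higher, while 11 did not pass the test (edgeR quasi-likelihood test, Benjamini-Hochberg FDR under 0.05). Over all 8853 genes tested, 38.1% were called, 17.9% lower and 20.1% higher. The median log2 fold change of the 54 genes was -0.73, compared with 0.008 over all genes. Of the 54, 50 had a fold change below 0. Called lower were 15 of 15 S phase genes, 17 of 20 G2/M genes, 7 of 12 cyclins and CDKs, 2 of 5 inhibitors and 1 of 2 transcription factors. Without pgWAT male replicates 1 and 3, the S phase, G2/M and cyclin and CDK genes called lower were 15, 18 and 9 (17.8% of all genes were lower). Without the 5 libraries that went against their label they were 11, 13 and 5 (11.5%). In this fit, here and below, replicates 1 and 3 were the only pgWAT males. The depot comparison gave both sex labels equal weight, so these replicates weighed more in it.

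**Figure D1:**
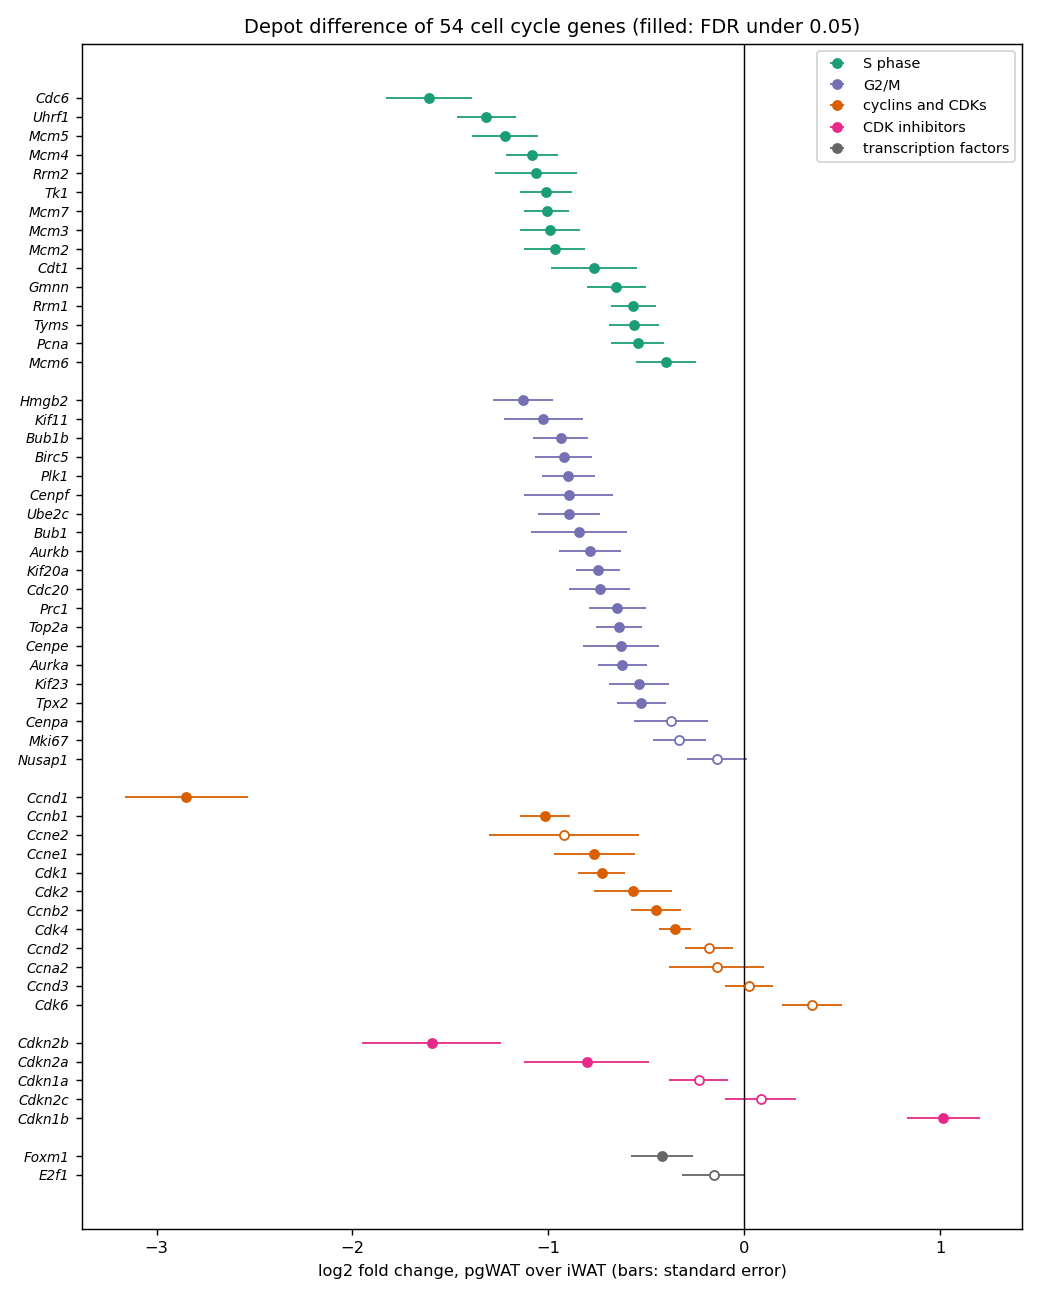
Log2 fold change of pgWAT over iWAT for each of the 54 genes tested (x axis), grouped by role and ordered by size; bars are standard errors and filled points passed FDR under 0.05. All 15 S phase and 20 G2/M points lie below 0, Ccnd1 is farthest left at -2.85, and Cdkn1b at 1.02 is the only filled point to the right.

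The 15 S phase transcripts summed to 1735, 2127 and 2714 CPM (lowest, median and highest) in the 19 iWAT libraries. In pgWAT male cells the sums were 1831, 1013, 1889 and 922.8 CPM in replicates 1 to 4, and in the 6 pgWAT female libraries they ran from 788.9 to 1178 CPM. Replicates 1 and 3 of pgWAT male thus lay within the iWAT range, and each of the other 8 pgWAT libraries lay below every iWAT library. Means were 2202 ± 343 CPM in iWAT (SD, n = 19) and 1185 ± 372 CPM in pgWAT (SD, n = 10).

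**Figure D2:**
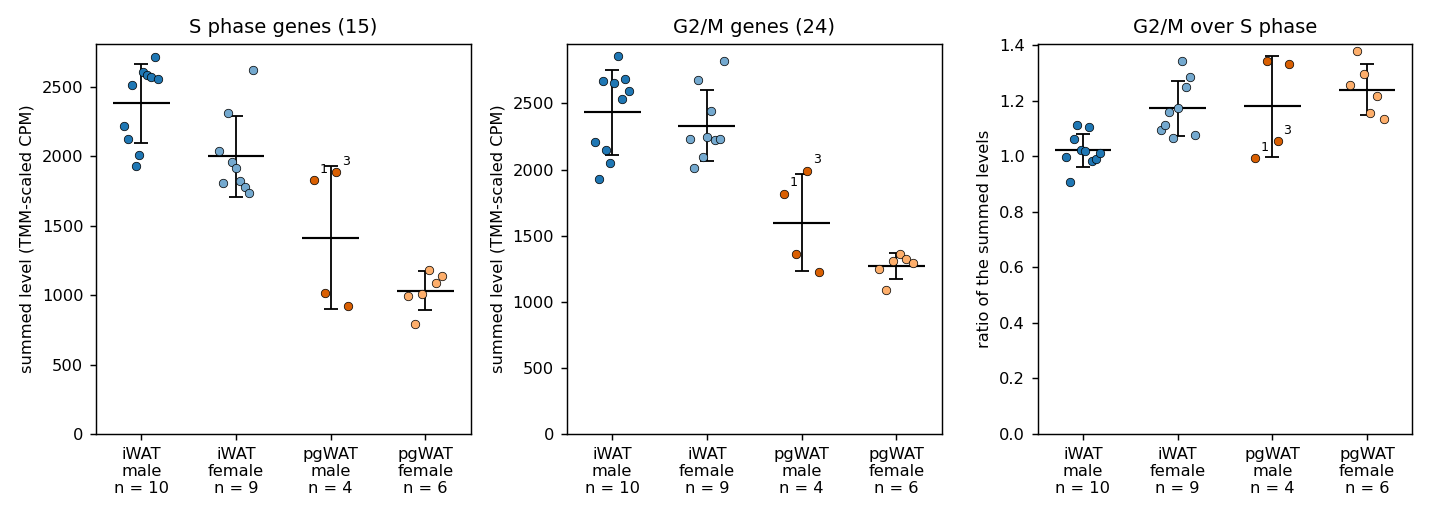
Summed TMM-scaled CPM of the 15 S phase genes and of 24 G2/M genes, and the ratio of the sums (y axes), in each library of the 4 groups; bars give the mean and SD, and the numbers 1 and 3 mark those pgWAT male replicates. Outside these 2 libraries, pgWAT S phase sums reach at most 1178 CPM and iWAT sums start at 1735 CPM.

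The S phase gene with the largest difference was Cdc6. Cdc6, which loads the MCM helicase onto origins, was at 19.7 to 40.9 CPM in iWAT, at 10.7, 3.54, 28.4 and 8.79 CPM in pgWAT male replicates 1 to 4, and at 4.25 to 11.1 CPM in pgWAT female cells. Only pgWAT male replicate 3 overlapped iWAT. Cdc6 fell by 1.61 on the log2 scale (SE 0.22, FDR 4.39e-07), a 3.05-fold difference. Counts behind it were low in pgWAT, 55 over 10 libraries.

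Uhrf1, which helps to copy DNA methylation behind the fork, fell by 1.32 on the log2 scale (SE 0.151, FDR 1.63e-08), from 121.7 ± 23.9 CPM in iWAT to 47.8 ± 19.8 CPM in pgWAT (SD, n = 19 and 10). Mcm5, a helicase subunit, ranged from 162 to 327 CPM in iWAT, stood at 158, 67.3, 175 and 59.3 CPM in pgWAT male replicates 1 to 4 and ranged from 39.3 to 120 CPM in pgWAT female cells. It fell by 1.22 on the log2 scale (SE 0.167, FDR 4.56e-07). Mcm4 fell by 1.08 (SE 0.135, FDR 8.15e-08) and Rrm2, the regulated subunit of ribonucleotide reductase, by 1.06 (SE 0.21, FDR 0.000132). The helicase subunits did not move by the same amount. Mcm2, Mcm3 and Mcm7 fell by 0.97 to 1.01, whereas Mcm6 was at -0.40 (SE 0.155, FDR 0.0407), the smallest S phase difference. Of the 40 alternative analyses of depot, 29 each left out a single library and 11 were of other kinds. The call for Mcm6 was lost in 11 of these 40. Its fold change came to -0.00142 (FDR 0.998) without the 5 pgWAT libraries whose sex genes went against the label. The only pgWAT males in that fit were replicates 1 and 3. Mcm6 was at 167.1 and 181.9 CPM in them, above the iWAT mean of 141.8 CPM.

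Tk1, which salvages thymidine, fell by 1.01 (SE 0.133, FDR 2.47e-07). The loader Cdt1 and its inhibitor Gmnn fell by 0.77 and 0.65, and the nucleotide enzymes Rrm1 and Tyms by 0.57 and 0.56. Without the 5 libraries that went against their label, Cdt1 was at -0.30 (FDR 0.28), Gmnn at -0.41 (FDR 0.101) and Rrm1 at -0.30 (FDR 0.0709), and none of them was called. In libraries of 500000 counts or more, Cdt1, Gmnn and Tyms were not called (FDR 0.0589, 0.0944 and 0.0776). Pcna, the sliding clamp of DNA polymerase, was lower by 0.54 (SE 0.134, FDR 0.00151). Its level was 149.7 to 256.9 CPM in iWAT, 206, 90.4, 210 and 82.4 CPM in pgWAT male replicates 1 to 4 and 101.8 to 157.9 CPM in pgWAT female cells. The pgWAT male libraries thus split into a pair inside the iWAT range and a pair below it. Mcm2 was at 84.3 to 176 CPM in iWAT and 40.6 to 123 CPM in pgWAT, where all 10 libraries lay below the iWAT mean. Pcna, Tyms and Ccnd3 have pseudogene copies in the table, among which similar reads could be split.

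Genes of G2 phase and mitosis were lower too. The 20 G2/M genes with Ccna2, Ccnb1, Ccnb2 and Cdk1 summed to 1927, 2247 and 2861 CPM (lowest, median and highest) in iWAT. The sums were 1817, 1359, 1991 and 1227 CPM in pgWAT male replicates 1 to 4 and 1089 to 1360 CPM in pgWAT female cells. Again replicate 3 of pgWAT male lay within the iWAT range, replicate 1 lay just below it, and the other 8 libraries were at or below 1360 CPM. Means were 2384 ± 293 CPM in iWAT and 1401 ± 280 CPM in pgWAT (SD, n = 19 and 10).

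Of the 17 G2/M genes called, the largest differences were those of Hmgb2, a chromatin protein that is abundant in dividing cells, and Kif11, the motor that pushes spindle poles apart. Hmgb2 was at 103.6 to 231.7 CPM in iWAT, at 92.4, 79.7, 83.8 and 61.5 CPM in pgWAT male replicates 1 to 4 and at 33.3 to 106.6 CPM in pgWAT female cells. A single pgWAT female library overlapped iWAT. Hmgb2 fell by 1.13 on the log2 scale (SE 0.152, FDR 3.34e-07). Hmgb2 was below every iWAT library in pgWAT male replicates 1 and 3 too.

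Kif11 fell by 1.03 (SE 0.202, FDR 0.000124). Next came Bub1b, of the spindle checkpoint, which fell by 0.94, Birc5, of the chromosomal passenger complex, by 0.92, and the mitotic kinase Plk1, by 0.90. Top2a, the topoisomerase that untangles replicated chromosomes, was at 158.4 ± 27.8 CPM in iWAT and 99.4 ± 24.9 CPM in pgWAT (SD, n = 19 and 10), a fall of 0.64 on the log2 scale (SE 0.118, FDR 5e-05). Called lower by between 0.52 and 0.90 were also Cenpf, Ube2c, Bub1, Aurkb, Kif20a, Cdc20, Prc1, Cenpe, Aurka, Kif23 and Tpx2. Of these, Cdc20, Bub1, Cenpe and Cenpf lost the call without the 5 libraries that went against their label (FDR 0.0558 to 0.257), and Cdc20, Bub1, Cenpe and Tpx2 in libraries of 500000 counts or more (FDR 0.0773 to 0.477). Kif23 lost it with plate column as a factor (FDR 0.105).

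The G2/M genes Mki67, Cenpa and Nusap1 did not pass the test. Mki67, whose protein is the usual stain for proliferating cells, was at 42.6 to 110.1 CPM in iWAT, 85.3, 37.2, 86.7 and 62.6 CPM in pgWAT male replicates 1 to 4 and 36.7 to 62.3 CPM in pgWAT female cells. The groups overlapped widely. Its log2 fold change was -0.33 (SE 0.134, FDR 0.0504), and it passed the test in 17 of 40 alternative analyses. The centromere histone Cenpa had -0.37 (FDR 0.12) and the spindle protein Nusap1 -0.14 (FDR 0.506).

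The ratio of the G2/M to the S phase sum described the balance of the programs. It was 1.02 ± 0.0607 in iWAT male, 1.17 ± 0.0987 in iWAT female, 1.18 ± 0.182 in pgWAT male and 1.24 ± 0.0921 in pgWAT female cells (SD, n = 10, 9, 4 and 6). The single values were 0.992, 1.34, 1.05 and 1.33 in pgWAT male replicates 1 to 4. Replicates 1 and 3 were thus close to the iWAT male mean and replicates 2 and 4 among the highest of all 29 libraries.

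No gene of the 55 separated all 10 pgWAT from all 19 iWAT libraries; over all genes tested 0.655% lay entirely below and 1.47% entirely above. Without pgWAT male replicates 1 and 3, which were set aside partly for their S phase sums, 14 members lay entirely below iWAT and 0 entirely above, compared with 1.85% and 2.59% of all genes. These were 8 S phase genes (Mcm2, Mcm3, Mcm4, Mcm5, Mcm7, Cdc6, Tk1 and Uhrf1), Top2a, Bub1b and Birc5 of the G2/M genes, and Ccnb1, Ccnd1 and Cdk1.

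The cyclins and CDKs did not move as a block. Of 12, 7 were called lower, none was called higher and 5 did not pass the test (17.9% of all genes were lower and 20.1% higher). The D-type cyclins, which sit at the entry into the cycle, differed most among themselves. Ccnd1 was at 156, 319 and 527 CPM (lowest, median and highest) in iWAT. In pgWAT it was at 83.6, 14.2, 161 and 17.6 CPM in male replicates 1 to 4 and at 32.8, 46.1, 73.4, 14.2, 10.6 and 3.33 CPM in female replicates 1 to 6. Only pgWAT male replicate 3 reached the lowest iWAT library, and the pgWAT libraries spread over a far wider range of folds than those of iWAT.

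Ccnd1 fell by 2.85 on the log2 scale (SE 0.314, FDR 6.82e-09), a 7.2-fold difference and the largest of the 54 genes. It kept its call in 40 of 40 alternatives, with values from -3.90 to -2.69. Within column 9 of the library plate the fold change between iWAT male and labelled pgWAT male cells was -4.77 (FDR 7.14e-09), where both pgWAT libraries (replicates 2 and 4) carried Xist. Within column 8, between female cells whose labels and sex genes matched, it was -4.28 (FDR 9.89e-10). Without pgWAT male replicates 1 and 3 it came to -3.90 over both sexes (FDR 3.68e-11). The pgWAT counts were small, 263 over 10 libraries and 1 in female replicate 6.

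Levels of the D-type cyclins were also expressed per transcript length, as a rough guide. The counts pool reads with and without molecular identifiers, so they need not scale with length. In iWAT the mean levels were 86.8 CPM per kb for Ccnd1, 76.9 for Ccnd2 and 34.4 for Ccnd3, using the longest coding transcript of GENCODE M21. In pgWAT they were 12.2 CPM per kb for Ccnd1, 65.7 for Ccnd2 and 35.7 for Ccnd3. By this measure Ccnd1 and Ccnd2 were within their spread of each other in iWAT, whereas mean CPM was 324.6 for Ccnd1 and 486.5 for Ccnd2. In pgWAT Ccnd1 was the lowest of the 3 by length and also in mean CPM (45.6 for Ccnd1, 415.7 for Ccnd2 and 75.5 for Ccnd3).

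Ccnd2 ranged from 349 to 867 CPM in iWAT and from 266 to 601 CPM in pgWAT, with a log2 fold change of -0.18 (SE 0.124, FDR 0.264). Without pgWAT male replicates 1 and 3 (601 and 529 CPM) it was -0.42 and passed the test (FDR 0.0144). Ccnd3 ranged from 42.8 to 101.2 CPM in iWAT and from 59.3 to 99.6 CPM in pgWAT, with a log2 fold change of 0.03 (SE 0.125, FDR 0.898), a sign that turned with library totals alone in place of TMM and in 10 other alternatives.

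**Figure D3:**
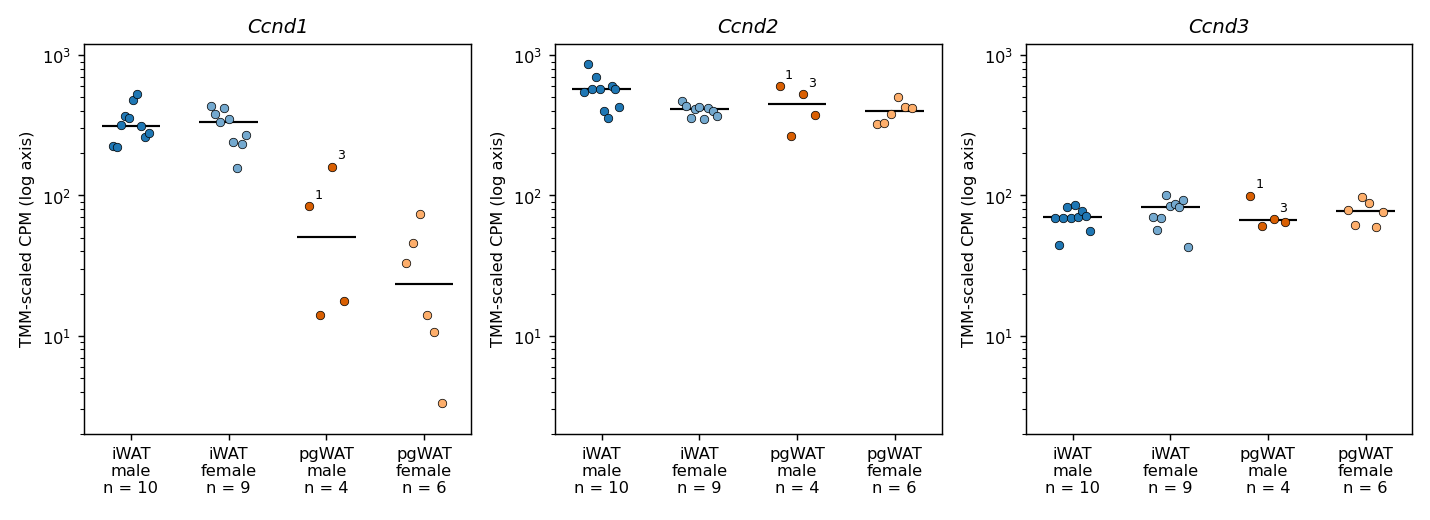
TMM-scaled CPM of Ccnd1, Ccnd2 and Ccnd3 (y axes, log scale) in each library of the 4 groups; horizontal lines are medians and the numbers 1 and 3 mark those pgWAT male replicates. Ccnd1 lies between 156 and 527 CPM in iWAT and between 3.33 and 161 CPM in pgWAT, whereas the depots overlap for the other two.

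Of their kinase partners, Cdk4 was called lower by 0.35 on the log2 scale (SE 0.0824, FDR 0.000923), from 616.3 ± 72.5 to 482.8 ± 59.2 CPM (SD, n = 19 and 10), a call lost in libraries of 500000 counts or more (-0.25, FDR 0.107). Cdk6 had a log2 fold change of 0.35 (SE 0.151, FDR 0.068). Its mean was 46.0 CPM in iWAT, and 1 pgWAT library lay below that. It was called higher in 4 of 40 alternatives, limma-voom among them (FDR 0.0497).

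Ccne1, which with Cdk2 drives entry into S phase, fell by 0.76 (SE 0.206, FDR 0.00351) and Cdk2 by 0.57 (SE 0.201, FDR 0.0247). Without the 5 libraries that went against their label, Ccne1 was at -0.36 (FDR 0.234) and Cdk2 at -0.72 (FDR 0.0522). Ccne1 was not called in libraries of 500000 counts or more (FDR 0.122), nor Cdk2 with plate column as a factor (FDR 0.0744) or without pgWAT female replicate 4. Ccne2 had a log2 fold change of -0.92 (SE 0.383, FDR 0.0563) at low counts. Ccna2, the cyclin of S and G2 phase, was at 22.8 ± 10.2 CPM in iWAT and 20.4 ± 7.43 CPM in pgWAT (SD, n = 19 and 10). Its log2 fold change was -0.14 (SE 0.242, FDR 0.69).

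The mitotic cyclins and their kinase were lower. Ccnb1 was at 151.5 to 297.2 CPM in iWAT, 124, 117, 175 and 76.9 CPM in pgWAT male replicates 1 to 4 and 72.1 to 120.4 CPM in pgWAT female cells. Only pgWAT male replicate 3 lay within the iWAT range. Ccnb1 fell by 1.02 on the log2 scale (SE 0.126, FDR 7.33e-08). Its partner Cdk1 fell by 0.73 (SE 0.122, FDR 1.18e-05), and was at 176, 122, 195 and 73.6 CPM in pgWAT male replicates 1 to 4. Its range was 79.4 to 96.6 CPM in pgWAT female and 140.4 to 258.9 CPM in iWAT cells. Ccnb2 fell by 0.45 (SE 0.128, FDR 0.00575).

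The CDK inhibitors went different ways. Of 5 tested, 1 rose, 2 fell and 2 did not pass the test, while of all genes 20.1% rose and 17.9% fell. Cdkn1b, which encodes p27, the inhibitor that accumulates in quiescent cells, was at 5.95, 17.0 and 34.6 CPM (lowest, median and highest) in iWAT. It was at 23.1, 44.3, 39.8 and 59.3 CPM in pgWAT male replicates 1 to 4 and at 19.99 to 38.4 CPM in pgWAT female cells. All 10 pgWAT libraries were above the iWAT mean of 17.6 CPM, though 2 iWAT libraries reached 30 CPM or more. Cdkn1b rose by 1.02 on the log2 scale (SE 0.185, FDR 3.9e-05) and stayed called in 40 of 40 alternatives (0.75 to 1.16).

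Cdkn2b, which encodes the CDK4 and CDK6 inhibitor p15, fell by 1.60 (SE 0.356, FDR 0.000549). It was at 4.62 to 74.4 CPM in iWAT, at 7.11, 7.09, 4.26 and 3.30 CPM in pgWAT male replicates 1 to 4 and at 0 to 23.3 CPM in pgWAT female cells, with 45 counts over the 10 pgWAT libraries. The value of 0, in female replicate 1, allows up to 9.42 CPM at that depth. Cdkn2a, which encodes p16 and ARF from the same gene, was at 13.3 ± 9.67 CPM in iWAT and 7.45 ± 2.7 CPM in pgWAT (SD, n = 19 and 10). Its depot difference of -0.80 (SE 0.319, FDR 0.0446) lost its call in 20 of 40 alternatives. Cdkn2a passed the filter on low counts mainly through iWAT female libraries, and no pgWAT library was above 11.1 CPM.

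Cdkn1a, which encodes p21, had the highest level per length of the inhibitors in both depots (162.3 and 137.8 CPM per kb). It was at 172.5 to 569.4 CPM in iWAT and 218.0 to 409.9 CPM in pgWAT. Its log2 fold change was -0.23 (SE 0.151, FDR 0.235). Within column 8 alone it was called higher in pgWAT female cells (0.85, FDR 0.00115), at 172.5 to 195.6 CPM in 3 iWAT and 256.5 to 409.9 CPM in 3 pgWAT libraries. Cdkn2c, which encodes p18, had a log2 fold change of 0.08 (SE 0.183, FDR 0.754). Cdkn1c, not tested, had 58 counts over the iWAT and 14 over the pgWAT libraries, and no library above 15.8 CPM.

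**Figure D4:**
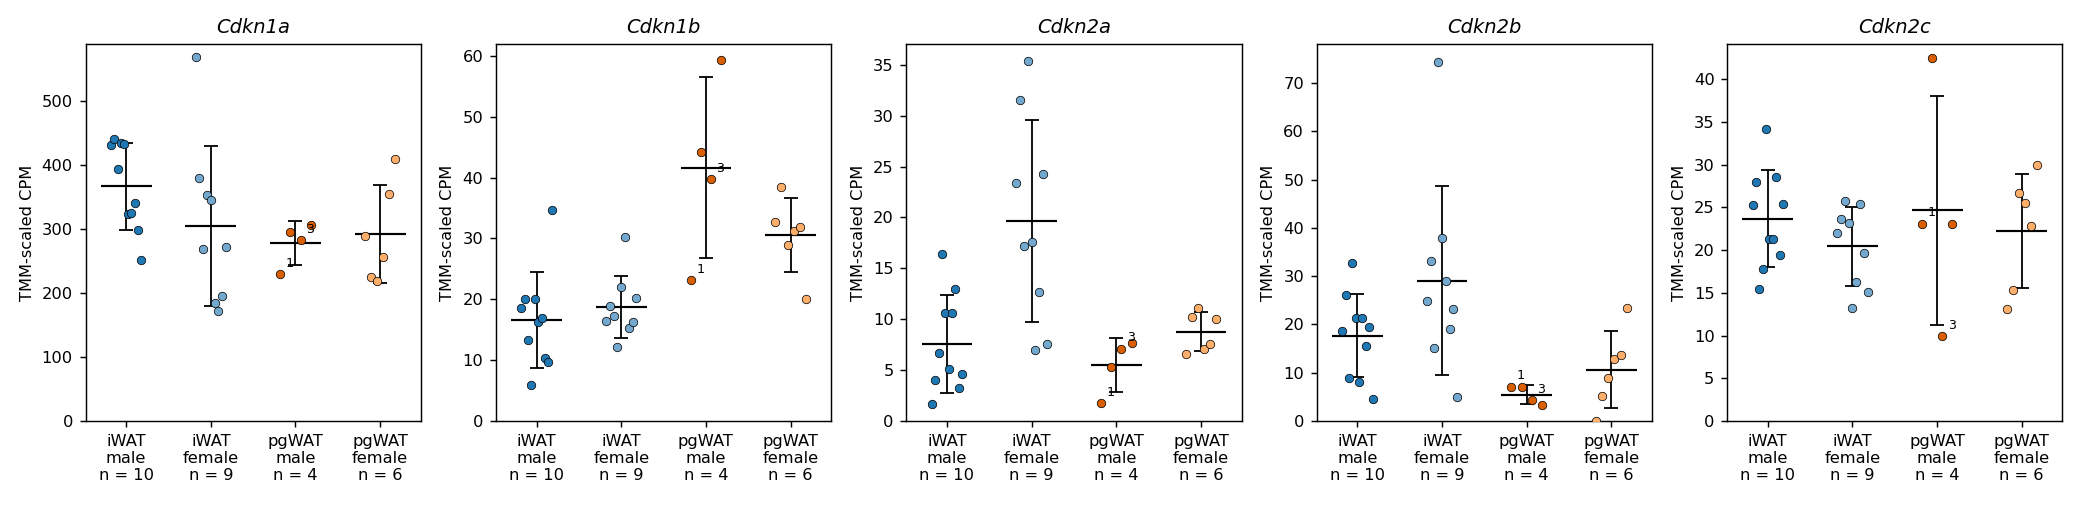
TMM-scaled CPM of 5 CDK inhibitor genes (y axes, each from 0) in each library of the 4 groups, with mean and SD; the numbers 1 and 3 mark those pgWAT male replicates. Cdkn1b is higher in pgWAT (19.99 to 59.3 CPM) than in iWAT (5.95 to 34.6 CPM), and Cdkn2a is highest in iWAT female cells.

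Of the transcription factors, Foxm1, which drives mitotic genes, fell by 0.42 (SE 0.159, FDR 0.0351), from 55.8 ± 12.2 to 41.1 ± 14.9 CPM (SD, n = 19 and 10). This call was lost in 7 of 40 alternatives. E2f1 was at 57.2 to 162 CPM in iWAT and 58.5 to 144.2 CPM in pgWAT and had a log2 fold change of -0.16 (SE 0.162, FDR 0.483). It passed the test without pgWAT male replicates 1 and 3 (-0.50, FDR 0.0261) and with plate column as a factor (-0.42, FDR 0.0415).

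The wider pathway was read from 161 further genes in 4 lists, of which 133 were tested. Of all genes, 17.9% were lower and 20.1% higher. Of other replication genes, 33 of 43 tested were lower and none was higher, with a median log2 fold change of -0.82. Largest were Dtl, a ubiquitin ligase subunit that removes Cdt1 during S phase (-1.29, FDR 3.59e-05), the initiation factor Mcm10 (-1.28, FDR 1.23e-05) and the kinase Cdc7, which activates the helicase (-1.23, FDR 0.000324). Of other mitosis genes, 50 of 57 were lower and none was higher, with a median of -0.75. Fbxo5, which holds back the anaphase-promoting complex, fell by 1.68 (SE 0.303, FDR 3.55e-05), Ccnf by 1.26 (FDR 6.02e-07) and the checkpoint kinase Ttk by 1.08 (FDR 0.000978).

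Of the RB, E2F and MuvB list, 6 of 14 tested were lower and none was higher, compared with 38.1% of all genes called in either direction and 17.9% lower. Skp2, the ubiquitin ligase subunit that marks p27 for destruction, fell by 1.21 (SE 0.272, FDR 0.000597), from 18.9 ± 7.88 to 8.16 ± 3.59 CPM (SD, n = 19 and 10). The repressor E2f7 fell by 0.85 (FDR 0.00198) and the E2F partner Tfdp1 by 0.69 (FDR 5.82e-05). Rb1, Rbl1 and Rbl2 did not pass the filter on low counts.

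Of the p53 and checkpoint list, 4 of 19 tested were higher and 2 lower, with a median of 0.08. Of all genes, 20.1% were higher and 17.9% lower, so the list as a whole did not stand out from all genes. The stress-induced Gadd45 genes made up 3 of the 4 that rose. Gadd45g rose by 1.81 on the log2 scale (SE 0.254, FDR 6.89e-07), from 73.7 ± 28.3 to 248.7 ± 159.7 CPM (SD, n = 19 and 10). Gadd45a rose by 1.55 (SE 0.27, FDR 2.35e-05) and Gadd45b by 0.79 (SE 0.294, FDR 0.0317). Plk2 was the other one (0.75, FDR 0.00104). Trp53 itself fell by 0.74 (SE 0.102, FDR 5.21e-07), from 152.8 ± 26.9 to 90.1 ± 10.3 CPM, and Phlda3 by 0.65 (FDR 0.00465). Trp53, Plk2 and Phlda3 were outside the naming rule and were picked after their values were seen.

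Depot was also compared within each sex label. In labelled males 27 members were lower and 1 higher (of all genes 20.3% were called, 8.53% lower and 11.8% higher), and in labelled females 35 were lower and 1 higher (26.8% of all genes, 12.6% lower and 14.2% higher). The S phase genes called lower were 12 of 15 in males and 13 of 15 in females, and the G2/M genes 10 of 20 and 15 of 20. Ccnd1 had -2.28 in males (FDR 0.00025) and -3.41 in females (FDR 2.71e-07). Cdkn1b had 1.33 in males (FDR 0.000361) and 0.70 in females (FDR 0.0386). The female call was lost in 15 of 37 alternatives, among them plate column as a factor (FDR 0.105) and column 8 alone (0.48, FDR 0.404). Without the 5 libraries that went against their label it was lost in both sexes (FDR 0.127 and 0.206). The test of the difference between the sexes called no member (lowest FDR 0.585), compared with 0.181% of all genes (0.102% higher and 0.0791% lower). In that edgeR test 0 members had an unadjusted p under 0.05, compared with 772 of all 8853 genes. Without the 5 libraries that went against their label, Ccnd1 was called (3.39, FDR 0.000146), with 1.43% of all genes called higher.

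The male comparison rested on 4 pgWAT libraries that disagreed with each other. Without replicates 1 and 3, which leaves only replicates 2 and 4, labelled male but carrying Xist, the S phase genes called lower were 14 of 15 and the G2/M genes 13 of 20 (11% of all genes). With replicates 1 and 3 alone kept, as in the fit without the 5 pgWAT libraries that went against their label, they were 3 of 15 and 1 of 20 (3.32% of all genes). Leaving out single libraries moved the members called in males from 28 to as few as 14 (without replicate 4) and 18 (without replicate 2).

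By the numbers in the sample titles, wells were spread over columns 7 to 10 of the library plate, and depot was not evenly spread over them. Column 7 held 11 iWAT libraries with S phase sums of 1808 to 2714 CPM and pgWAT male replicate 3 with 1889 CPM. Column 8 held 3 iWAT female libraries with 1735 to 1821 CPM, 3 pgWAT female libraries with 1085 to 1178 CPM and pgWAT male replicate 1 with 1831 CPM. In column 9 the 4 iWAT libraries were at 2518 to 2624 CPM and both pgWAT libraries at 922.8 and 1013 CPM. In column 10 the iWAT female library was at 2314 CPM and the 3 pgWAT female libraries at 788.9 to 1008 CPM. The depots were thus apart in columns 9 and 10, and in column 8 apart from pgWAT male replicate 1.

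**Figure D5:**
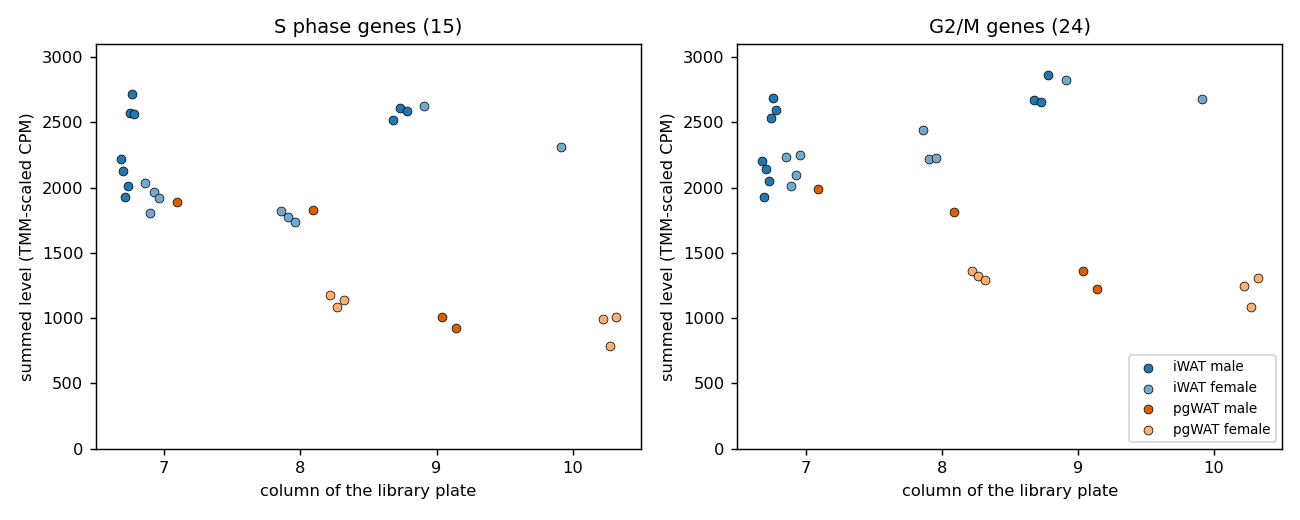
Summed TMM-scaled CPM of the S phase and the 24 G2/M genes (y axes) in each library, by column of the library plate (x axis) and colored by group. The column was read from the sample title. In columns 9 and 10 every pgWAT library is below every iWAT library, with S phase sums of at most 1013 CPM compared with at least 2314 CPM.

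With column as a factor in the fit, 15 of 15 S phase and 17 of 20 G2/M genes were called lower (14.8% of all genes). Within column 9 alone (3 iWAT male and 2 labelled pgWAT male libraries, both carrying Xist), 15 of 15 S phase and 15 of 20 G2/M genes were lower (11.3% of all genes), with medians of -1.49 and -1.07. Sex and depot cannot be told apart in that subset. Within column 8 alone (3 iWAT female and 3 pgWAT female libraries), 10 of 15 and 13 of 20 were lower, with medians of -0.75 and -0.87. Of all genes, 5.74% were lower and 8.25% higher there, and Cdkn1a was the only member called higher.

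Depth moved with the sums in iWAT. The 7 iWAT libraries under 500000 counts had S phase sums of 2314 to 2714 CPM, and the 12 deeper ones 1735 to 2609 CPM. In pgWAT the 4 libraries under 500000 counts had 788.9 to 1140 CPM and the 6 deeper ones 922.8 to 1889 CPM. Of the deeper ones, pgWAT male replicates 1 and 3 had 1831 and 1889 CPM, and the others 922.8 to 1178 CPM. The shallow libraries of the depots were thus farther apart than the deep ones. Both replicates stayed in the subset of deeper libraries, and their part in the calls lost there was not tested. Among libraries with 500000 counts or more, 11 of 15 S phase and 13 of 20 G2/M genes were called lower in pgWAT (11.1% of all genes), and the medians were -0.79 and -0.66.

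Marker genes of other cell types also differed between the depots, where 20.1% of all genes were called higher and 17.9% lower in pgWAT. Summed fibroblast markers were at 6530 to 12500 CPM in iWAT and 11960 to 23250 CPM in pgWAT, and 5 of 6 tested were higher in pgWAT. Macrophage markers were at 681.2 to 2578 CPM in iWAT and 781.0 to 8354 CPM in pgWAT, with 6 of 7 tested higher. Without pgWAT male replicates 1 and 3, the pgWAT macrophage sums reached 3604 CPM. Their median was then 1239 CPM, below the iWAT median of 1485 CPM. Smooth muscle and pericyte markers were at 638.3 to 3624 and 1260 to 3088 CPM (2 of 3 higher). The 2 were Acta2 and Tagln, with means of 799 and 325.9 CPM in iWAT and 1318 and 875.8 CPM in pgWAT. Cspg4, Rgs5 and Kcnj8 did not pass the filter and had lower means in pgWAT (3.38, 3.82 and 2.25 CPM) than in iWAT (13.4, 7.97 and 3.51 CPM). Notch3, not called, and Myh11, not tested, had higher means in pgWAT. Endothelial markers were at 46.7 to 141.2 and 46.7 to 154.1 CPM (2 of 5 higher). Mesothelial markers were at 2.00 to 1476 and 58.7 to 266.9 CPM (2 of 5 higher and 1 lower), and epithelial markers at 0 to 742.9 and 1.78 to 129.0 CPM (1 of 2 higher). The highest iWAT value of both belonged to iWAT female replicate 9, whose S phase sum of 2624 CPM was the highest of the iWAT female libraries. In iWAT the mesothelial sum was mainly that of the keratins Krt8, Krt18 and Krt19. Their means were 69.3, 54.1 and 24.2 CPM in iWAT and 33.9, 28.3 and 10.4 CPM in pgWAT. The fitted log2 fold changes of Krt8 and Krt18 went the other way, 1.72 (FDR 0.132) and 0.89 (FDR 0.299), and neither was called. That of Krt19 was -1.43 (FDR 0.00787). Upk3b, Wt1, Lrrn4 and Msln had means of 0.046, 0.45, 0 and 1.01 CPM in iWAT and 41.6, 22.8, 11.5 and 9.50 CPM in pgWAT. None of the 4 adipocyte markers passed the filter, and their sum stayed at or under 44.03 CPM. No marker of any list was at 0 in all 29 libraries. The part of these cell types in the depot difference was not tested.

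Sex was compared in iWAT first, where all libraries matched their label. There 1 member was higher and 1 lower in males (of all genes 3.22% were called, 1.08% higher and 2.13% lower). Cdkn2a fell by 1.34 on the log2 scale in males compared with females (SE 0.329, FDR 0.0166). It was at 1.69, 5.86 and 16.4 CPM (lowest, median and highest) in the 10 iWAT male libraries and 6.96, 17.6 and 35.4 CPM in the 9 iWAT female libraries, with 44 and 134 counts in all. The ranges overlapped, and within column 7 the difference was -1.71 (FDR 0.0226). Cdkn2a passed the filter on low counts mainly through the iWAT female libraries, the group where it was high. Its call is therefore not independent of that filter.

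Mcm4 was higher in males by 0.49 (SE 0.142, FDR 0.0479), at 143.8 ± 14.5 CPM in iWAT male and 102.9 ± 18.4 CPM in iWAT female cells (SD, n = 10 and 9). Ccnd2 had 0.47 in the same direction (SE 0.142, FDR 0.0596), at 560.9 ± 150 and 403.9 ± 40.1 CPM. All 15 S phase genes had a fold change above 0, with a median of 0.24 compared with 0.006 over all genes. The S phase sum was 2385 ± 284 CPM in iWAT male and 2000 ± 293 CPM in iWAT female cells (SD, n = 10 and 9). The G2/M genes had a median of 0.05, with 13 of 20 above 0. The Mcm4 call was lost in 19 of 39 alternatives, including library totals alone (FDR 0.0554), no filter (FDR 0.07), plate column as a factor (FDR 0.0549) and column 7 alone (FDR 0.157). In a fit of the iWAT libraries alone, Mcm4 and Ccnd2 were called (FDR 0.00587 and 0.0282) and Cdkn2a did not pass the filter. Neither Mcm4 nor Cdkn2a was called among libraries with 500000 counts or more. Macrophage marker sums also differed between the sexes in iWAT, at 1485 to 2578 CPM in male and 681.2 to 1148 CPM in female cells. Fibroblast sums were at 6530 to 10620 and 7984 to 12500 CPM, and smooth muscle and pericyte sums at 638.3 to 880.6 and 872.8 to 3624 CPM. Mesothelial sums, in iWAT mainly those of keratins, were at 2.001 to 57.5 and 40.5 to 1476 CPM. Epithelial sums were at 0 to 2.31 and 20.8 to 742.9 CPM. Endothelial sums were at 64.1 to 141.2 and 46.7 to 97.7 CPM, and adipocyte sums at 2.60 to 44.03 and 0 to 10.97 CPM. Their part in the sex values was not tested.

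Between the pgWAT sex labels no member was called (0.0113% of all genes, 1 gene). An unadjusted edgeR p under 0.05 was found for 10 of 54 members and for 739 of all 8853 genes. DESeq2 and limma-voom called 0 members too. The lowest was that of Cdk1 (0.69 higher in labelled males, edgeR unadjusted p = 0.00138, FDR 0.274). Since 5 of the 10 libraries went against their label, these values compare labels, not sexes. Among the 2 male and 3 female libraries that matched their label, 6 members were called, all higher in males, compared with 3.17% of all genes. These were Ccnd1 (3.48, FDR 1.49e-05), Cdk1 (1.04, FDR 0.00263), Pcna (0.93, FDR 0.00795), Mcm3 (1.12, FDR 0.0112), Cdc6 (1.66, FDR 0.0293) and Mcm2 (0.97, FDR 0.0454). Both males were replicates 1 and 3, which carried the high macrophage marker sums, and their part in these values was not tested.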

How the data were processed

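Stromal vascular cultures were sequenced with Smart-seq3 in 29 libraries. The authors trimmed reads with NGmerge and deposited expected counts per gene that Salmon 1.9.0 estimated against GENCODE transcripts (GRCm39); reads with and without molecular identifiers were used, and STAR 2.7.10a, FastQC 0.11.9 and MultiQC 1.12 served for quality control. Estimated counts split reads among similar transcripts, internal reads carry no strand, so overlapping antisense genes cannot be told apart, and of the nonzero values 85.1% were whole (within 1e-09).

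Counts were rounded and fitted with edgeR 4.0.16 (R 4.3.3, TMM factors 0.949 to 1.06, filterByExpr on the 4 groups, a means model over all 29 libraries, quasi-likelihood F tests, two-sided, Benjamini-Hochberg over 8853 genes). Standard errors were derived from F. CPM used TMM-scaled library sizes, so values are shares of each library and not amounts per cell. At these depths 3 counts equal 2.72 to 9.51 CPM, a limit that covers counting error only. The fit was checked on simulated counts. Symbols (91.4% of 56953 rows; the rest held 0.439% of counts) and lengths came from GENCODE M21 and RefSeq, promoters from RefSeq. Group and sex came from the labels, and no library was counted as a duplicate (highest correlation of log2 CPM between libraries 0.983).

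The members and lists were chosen with earlier results of these data known. Values are given in full for the main proliferation markers, cyclins, kinases, inhibitors and factors, the 5 called genes with the largest depot change per role and up to 3 for sex in iWAT, and, from each further list, the 3 called genes with the largest depot change at an average log2 CPM of 4 or more. Marker lists covered fibroblast, mesothelial, epithelial, macrophage, endothelial, pericyte and smooth muscle, and adipocyte genes. Alternatives covered scaling, filter, DESeq2 1.42.0, limma 3.58.1 (voom), plate column, and libraries left out. Lin54 was not analysed here.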

Additional observations from a re-analysis of the deposited data

Results flagged for a closer look

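Within each group of 4 to 10 libraries, the highest or lowest value was compared with its nearest neighbor (Dixon's ratio of gap to range). Of 232 groups of values, 10 (4.31%) passed the 95% limit, and chance alone passes about 1 in 20.

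In iWAT female replicate 9, the library with the high mesothelial (mainly keratin) and epithelial marker sums, Mcm3 (229.2 CPM), Prc1 (204.0 CPM) and Ccne1 (65.5 CPM) were the highest of 9. In iWAT female replicate 3, Plk1 (253.8 CPM) and Cenpf (60.2 CPM) were the highest, with 118 and 28 counts. Mcm6 was lowest in iWAT female replicate 2 (75.8 CPM), and Cdkn2b highest in iWAT female replicate 4 (74.4 CPM). In iWAT male cells, Gmnn was highest in replicate 8 (77.9 CPM) and Cdkn1b in replicate 10 (34.6 CPM, 15 counts). Pcna was highest in pgWAT female replicate 3 (157.9 CPM), a library without Xist.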

How the results depend on the processing

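No paired analysis was possible because the labels and columns carry no replicate numbers. Over 40 alternatives for each of 54 members in the depot comparison (2160 values), 2021 kept direction and call, 86 lost the call, 37 gained it and 16 changed sign. Of the 40, 29 each left out a single library, so most alternatives share nearly all their data and are not independent. The cause was not tested for any change. A fold change above 2 left 920 genes and 13 members called. Leaving out single libraries gave 3020 to 3380 genes and 40 to 45 members for depot, 1184 to 1905 and 14 to 31 in males, 2048 to 2465 and 33 to 38 in females, 206 to 332 and 1 to 3 for sex in iWAT, 0 to 9 and 0 to 1 for sex in pgWAT, and 3 to 31 and 0 for depot by sex. Without the 5 pgWAT libraries against their label, called were 872 genes and 7 members for depot in males, 556 genes for sex in iWAT, 536 genes and 6 members (Ccnd1, Cdk1, Pcna, Mcm3, Cdc6 and Mcm2, all higher in labelled males) for sex in pgWAT, and 244 genes and 1 member (Ccnd1) for depot by sex. This leaves replicates 1 and 3 as the pgWAT males. Column 8 alone gave 1348 genes for depot in females. For sex in iWAT, no filter gave 509 genes, column as a factor 496, and libraries of 500000 counts or more 62 genes and 0 members, an alternative chosen after seeing the data. Library totals alone, and column 7 alone, left 1 member, Cdkn2a. For sex in pgWAT, no filter gave 59 genes, DESeq2 16, limma-voom 6, column as a factor 58 and leaving out pgWAT male replicates 1 and 3 (also chosen after seeing the data) 9. For depot by sex, no filter gave 73, DESeq2 37 and limma-voom 2. Members that changed sign were not called under the alternative that turned them: Ccna2 (0.20 in libraries of 500000 counts or more), Ccnd2 (0.0724) and Cdkn2c (-0.133) without the 5 libraries, Cdkn2c when single libraries were left out (-0.101 without pgWAT male replicate 2 to 0.209), Cdkn1a with column as a factor (0.156), and Ccnd3. Ccnd3 had -0.0203 with library totals alone, -0.000296 without a filter, -0.0774 with column as a factor, -0.0936 without pgWAT male replicates 1 and 3, -0.0821 in libraries of 500000 counts or more, and -0.07 to 0.0634 when single libraries were left out. Ccnd1 between the sexes in iWAT turned to -0.478 within column 7 and ran from -0.000144 to 0.17 when single libraries were left out. The S phase and G2/M sums kept their direction with other scalings and with the median over members.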

Other observations

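Ccnd1 was set beside the sex-linked genes of each pgWAT library, a comparison of values chosen after they were seen. In the libraries with Y-linked counts and no Xist, Ccnd1 was at 83.6 CPM (labelled male replicate 1), 161 CPM (labelled male replicate 3), 46.1 CPM (labelled female replicate 2) and 73.4 CPM (labelled female replicate 3). In the libraries with 22 or more Xist counts it was at 14.2 CPM (labelled male replicate 2), 17.6 CPM (labelled male replicate 4), and 14.2, 10.6 and 3.33 CPM (labelled female replicates 4, 5 and 6). The mixed library, labelled female replicate 1, was at 32.8 CPM. These values of a single picked gene fall into ranges that do not overlap, on 113 to 18 counts in the former and 16 to 1 in the latter. How many of all genes split these libraries in the same way was not counted. Labelled male replicates 1 and 3, the highest here, also carried the macrophage marker sums of 7749 and 8354 CPM. The S phase sum did not follow the order of Ccnd1: labelled female replicates 2 and 3 had 788.9 and 1008 CPM, below the 1085 to 1178 CPM of labelled female replicates 4 to 6. In iWAT, where sex genes and labels matched, Ccnd1 was at 220 to 527 CPM in male and 156 to 433 CPM in female cells, with a log2 fold change of 0.10 (SE 0.287, edgeR FDR 0.924). Plate column followed the same split in pgWAT in part, since the libraries with Y-linked counts sat in columns 7, 8 and 10 and those with Xist in columns 8 and 9.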
